A study of Mus musculus with 45 samples.

Results

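Adipoq, Lep, Plin1, Cidec, Fabp4, Retn, Pck1, Cyp2e1 and Lpl are 9 genes of the adipocyte and of fat storage, among 55367 gene symbols measured by 3′ end RNA sequencing. They form a list that was drawn up by name and was kept because Pck1 and Cyp2e1 were higher in scaffolds of 4T1 mice than in scaffolds of 4T07 mice, so levels in those scaffolds are given as a description. The study placed porous polycaprolactone scaffolds, which serve as an engineered niche for disseminating tumor cells, under the skin of female Balb/c mice. The mice were then inoculated with 67NR, 4T07 or 4T1 cells in a mammary fat pad, or stayed healthy (Control), and the comparison asked whether the tissue response separates metastatic from nonmetastatic disease. All 3 lines are sister lines of triple-negative breast cancer from a single mouse tumor: 67NR does not leave the primary site, 4T07 disseminates without forming metastases, and 4T1 metastasizes, mainly to the lung. Scaffold, lung and spleen were taken at day 14 from Control, 67NR, 4T07 and 4T1 mice, and the primary tumor from the 67NR, 4T07 and 4T1 mice, with 3 libraries in each of the 15 groups. Control mice carried a scaffold and no tumor, the labels give no age, and each line stands for its condition alone. Whether libraries of different tissues came from the same mouse is not in the labels.

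White adipocytes store triglyceride in a single large lipid droplet and release hormones into the blood. Adipoq (adiponectin), Lep (leptin) and Retn (resistin) encode secreted hormones. Plin1 (perilipin) coats the droplet and gates lipolysis, and Cidec joins small droplets into large ones. Lpl (lipoprotein lipase) frees fatty acids from circulating lipoproteins, and Fabp4 carries fatty acids inside the cell. Pck1 is the cytosolic phosphoenolpyruvate carboxykinase, which makes glycerol backbones for triglyceride in fat and glucose in liver and kidney. Cyp2e1, a cytochrome P450 that oxidises ethanol and ketones, is abundant in liver and is also present in fat. Lpl and Fabp4 are not restricted to adipocytes: macrophages use both, and capillary endothelium uses Fabp4.

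The sequence just before the transcript start is shown for Adipoq, the reference gene of the list, and for Pck1 and Cyp2e1, the 2 genes the list was kept for, since their levels ran together over the scaffolds. The sequences are from RefSeq on GRCm38.p6, on the plus strand, and were matched by gene symbol. Capitals mark every match to the motifs searched.
Adipoq, chr16:23146286-23146535: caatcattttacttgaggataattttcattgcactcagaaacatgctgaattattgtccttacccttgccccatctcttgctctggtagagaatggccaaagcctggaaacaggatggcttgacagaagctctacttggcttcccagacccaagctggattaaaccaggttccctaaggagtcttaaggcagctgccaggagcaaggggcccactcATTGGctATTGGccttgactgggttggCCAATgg
Pck1, chr2:173152823-173153072: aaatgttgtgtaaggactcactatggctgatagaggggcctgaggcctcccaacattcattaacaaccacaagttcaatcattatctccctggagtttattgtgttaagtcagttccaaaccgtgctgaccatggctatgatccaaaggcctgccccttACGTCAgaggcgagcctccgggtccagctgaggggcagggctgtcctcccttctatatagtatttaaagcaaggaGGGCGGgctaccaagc
Cyp2e1, chr7:140763569-140763818: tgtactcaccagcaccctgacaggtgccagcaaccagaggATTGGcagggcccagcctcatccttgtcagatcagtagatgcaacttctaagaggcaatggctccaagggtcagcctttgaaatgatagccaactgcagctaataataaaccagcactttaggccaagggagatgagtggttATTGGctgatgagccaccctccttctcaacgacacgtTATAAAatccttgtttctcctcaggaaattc
The motifs searched, on both strands, were the TATA box (TATAAA, in 12.4% of the 32851 promoters of the table at this length), the CCAAT box (CCAAT, 33.9%), the C/EBP palindrome (TTGCGCAA, 0.164%), the core of the cAMP response element (ACGTCA, 6.47%), the nuclear receptor core site (AGGTCA, 14.0%) and the GC box (GGGCGG, 32.7%). The Adipoq window held 3 CCAAT boxes within its last 34 bases. The Pck1 window held the cAMP response element core 91 to 86 bases before the start and a GC box 16 to 11 bases before it. In Cyp2e1 the TATA box lay 31 to 26 bases before the start, with CCAAT boxes on the opposite strand at 210 to 206 and at 68 to 64 bases. The 3 windows shared no motif other than the CCAAT box of Adipoq and Cyp2e1. Of the other members, Lep held TTGCGCAA 55 to 48 bases before its start and a GC box, and Plin1, Cidec and Retn held none of these letters. Fabp4 and Lpl were not matched.

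Each library held 3491888 to 8175380 counts (median 5149589), so that 3 counts, the limit that a count of 0 allows, equal 0.367 to 0.859 counts per 1000000 (CPM). These limits cover counting error only. The 3 lungs of 4T07 mice stood apart: lung epithelial markers summed to 5935 to 14756 CPM against 29078 to 38025 CPM in the other 9 lungs, and spleen B cell markers to 1645 to 2264 CPM against 112 to 267 CPM. Control lung 5 held hepatocyte markers summing to 259 CPM against at most 14.3 CPM in any other lung. Scaffolds held macrophage markers at 11205 to 17754 CPM and fibroblast markers at 5585 to 11417 CPM, the cells that enter an implant.

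In scaffolds, Pck1 and Cyp2e1 were highest after 4T1 inoculation and lowest after 4T07 inoculation. Pck1 stood at 12.9, 43.1 and 25.9 CPM in the 4T1 scaffolds and at 4.16, 5.11 and 4.04 CPM in the 4T07 scaffolds. Every 4T1 scaffold lay above every 4T07 scaffold, the range that chose the gene. Control scaffolds held 7.55, 8.87 and 11.8 CPM and 67NR scaffolds 3.14, 9.79 and 19.7 CPM of Pck1, so the 67NR group alone spanned the Control range and overlapped the 4T1 range. Cyp2e1 stood at 15.8, 23.3 and 10.4 CPM in the 4T1 scaffolds and at 3.91, 2.75 and 2.64 CPM in the 4T07 scaffolds. Control scaffolds held 3.57, 3.17 and 11.3 CPM and 67NR scaffolds 2.77, 3.05 and 9.99 CPM. In both groups 1 library, Control scaffold 3 and 67NR scaffold 12, lay near the 4T1 values, and the others lay near the 4T07 values. On the fitted log2 scale of edgeR, 4T1 exceeded 4T07 scaffolds by 2.64 ± 0.58 (SE) for Pck1, a 6.23-fold difference, and by 2.40 ± 0.55 for Cyp2e1, a 5.29-fold difference.

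**Figure D1:**
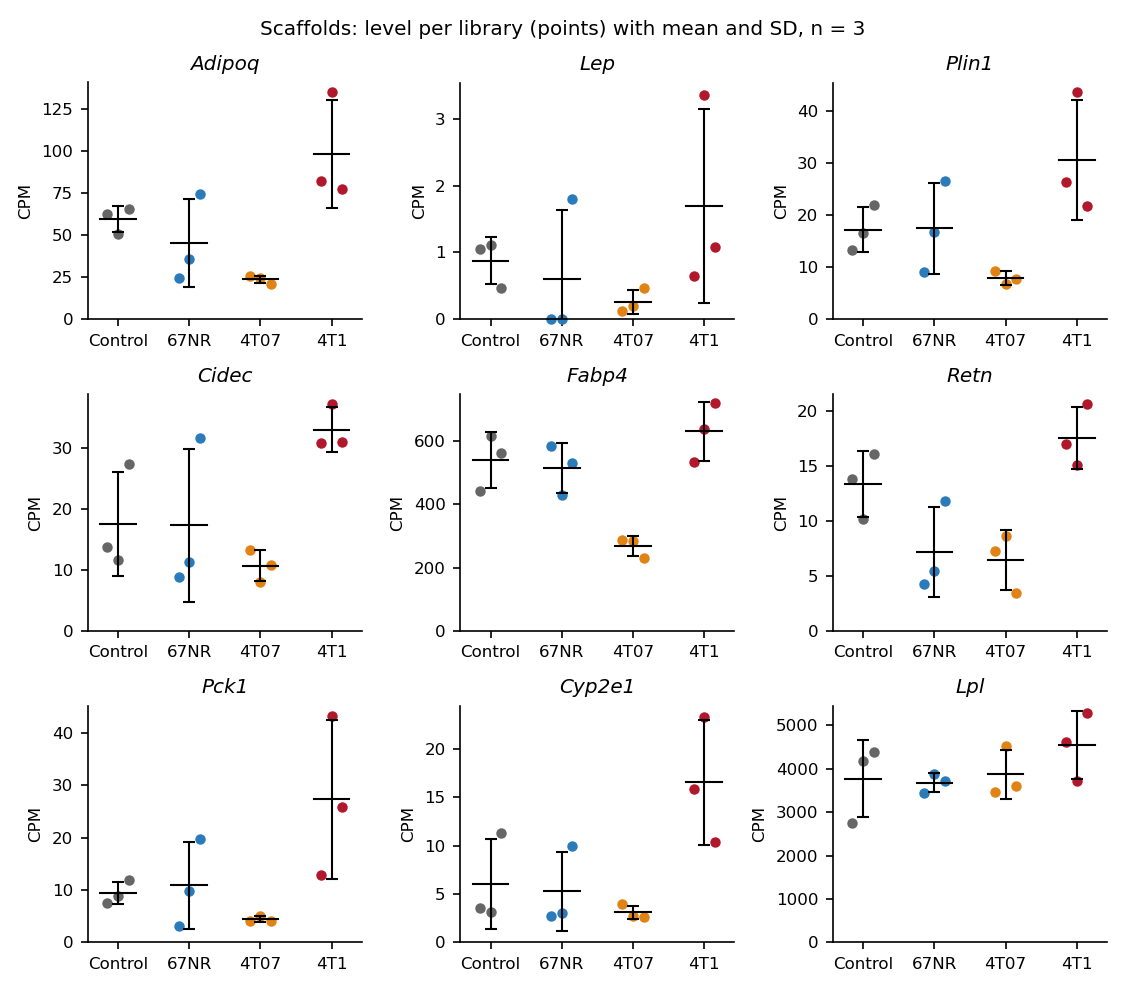
Level of each of the 9 genes in the 12 scaffolds, in CPM on a linear axis from 0; points are libraries, the horizontal line is the mean and the bars are the SD of 3. The 4T1 group has the highest mean in all 9 panels and the 4T07 group the lowest in 8, the exception being Lpl.

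The hormones, too, had their highest mean in 4T1 and their lowest in 4T07 scaffolds. Adipoq was measured at 62.7, 50.8 and 65.5 CPM in Control scaffolds, 24.8, 35.9 and 74.8 CPM in 67NR scaffolds, 25.4, 24.4 and 21.1 CPM in 4T07 scaffolds and 82.3, 135 and 77.4 CPM in 4T1 scaffolds. The 4T1 scaffolds were above all others, and the 4T07 scaffolds were tight and overlapped only with 67NR scaffold 10. The mean of the highest group was 4.16 times that of the lowest. Retn, which in mice is made by adipocytes, stood at 17.0, 15.1 and 20.6 CPM in 4T1 scaffolds, 13.8, 10.1 and 16.1 CPM in Control scaffolds, 4.25, 5.46 and 11.8 CPM in 67NR scaffolds and 7.22, 8.65 and 3.42 CPM in 4T07 scaffolds. The 2 highest groups overlapped, as did the 2 lowest. Lep was close to the limit of detection, with 4, 18 and 6 counts in the 4T1 scaffolds, 5, 7 and 3 in Control, 0, 0 and 11 in 67NR and 1, 1 and 3 in 4T07. Its level in the 4T1 group rested mainly on 4T1 scaffold 35, so its groups are described by counts alone. Its fitted differences are not printed, but they enter the scaffold medians over the members.

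The droplet proteins behaved alike. Plin1 stood at 26.4, 43.6 and 21.7 CPM in 4T1 scaffolds, 13.2, 16.5 and 21.9 CPM in Control, 9.05, 16.7 and 26.5 CPM in 67NR and 9.30, 6.68 and 7.77 CPM in 4T07 scaffolds. The 4T07 scaffolds lay below all Control scaffolds and below 2 of the 3 67NR scaffolds. Cidec stood at 30.9, 37.3 and 31.1 CPM in 4T1 scaffolds, 13.8, 11.6 and 27.4 CPM in Control, 8.87, 11.4 and 31.8 CPM in 67NR and 13.2, 8.06 and 10.9 CPM in 4T07 scaffolds. Here Control scaffolds 1 and 2 and 67NR scaffolds 10 and 11 lay within or beside the 4T07 range.

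The genes of fatty acid supply, which other cells of the scaffold also express, split. Fabp4 was 289, 284 and 232 CPM in 4T07 scaffolds, and every library of the other groups was higher, with 444, 618 and 562 CPM in Control, 584, 429 and 531 CPM in 67NR and 535, 638 and 721 CPM in 4T1 scaffolds. Those 3 groups overlapped, so that Fabp4 set the 4T07 scaffolds apart and not the 4T1 scaffolds. Lpl stood at 2751, 4188 and 4381 CPM in Control, 3440.2, 3874 and 3716 CPM in 67NR, 3469, 4525 and 3613 CPM in 4T07 and 4615, 3721 and 5280.0 CPM in 4T1 scaffolds. All 4 groups overlapped for Lpl, and the highest mean was 1.23 times the lowest.

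Calls across all 22156 genes tested in scaffolds used the quasi-likelihood F test of edgeR, p-values adjusted by Benjamini and Hochberg, an adjusted p under 0.10 and a fold over 2. Between 4T1 and 4T07 scaffolds 0.587% of genes were called higher in 4T1, with 6 members among them (Adipoq, Plin1, Fabp4, Retn, Pck1 and Cyp2e1). The list was kept for Pck1 and Cyp2e1 in these same scaffolds, so the 6 calls are a description and no test of the members. The number of members called was 1 without 4T07 scaffold 24, 3 without 4T07 scaffold 22 or 23, and 4 without any one of the 4T1 scaffolds. Between 4T07 and Control scaffolds 3.47% were called lower, with 4 members (Adipoq -1.48, Plin1 -1.25, Fabp4 -1.15 and Retn -1.20 on the log2 scale), and between 4T07 and 67NR scaffolds 2.92%, with 3 members (Adipoq, Plin1 and Fabp4). For 4T1 against Control scaffolds 0.0451% of genes were called in either direction and for 4T1 against 67NR scaffolds 0.0316%, with 0 members in either comparison. The median log2 difference of the members was -1.20 for 4T07 against Control and 0.71 for 4T1 against Control, beside 0.04 and 0.01 over all genes. These comparisons share the 4T07 or 4T1 scaffolds with the choice of the list, and nothing is tested with them.

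The comparison of 67NR with Control scaffolds did not enter that choice. None of the 9 members was called, and 0% of genes were called in either direction by edgeR, while DESeq2 called 1 gene and no member. At an unadjusted p under 0.05, 618 genes passed (2.79%), and 1 member, Retn, was among them, with a log2 difference of -0.96 ± 0.36, adjusted p = 0.999 by edgeR. Pck1 differed by 0.14 ± 0.56, adjusted p = 0.999 and Cyp2e1 by -0.26 ± 0.55, adjusted p = 0.999, in both cases with a difference smaller than its own error. The median of the 9 log2 differences was -0.14, beside 0.01 over all genes.

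In these bulk libraries fewer cells of a type and less RNA per cell cannot be told apart. Hepatocyte markers, read because liver also expresses Pck1 and Cyp2e1, summed to 0.490 to 3.54 CPM in the 12 scaffolds, with 5 to 8 of the 10 markers at 0 in each library. The 4T1 (0.490 to 3.54 CPM) and 4T07 (0.590 to 1.40 CPM) ranges overlapped. Markers of kidney, which also uses Pck1, were not read. Tat had no count in any scaffold, and Alb (albumin) reached at most 0.932 CPM. Skeletal muscle markers summed to 191 to 477 CPM in 4T07 scaffolds, 32.0 to 173 CPM in 4T1, 5.73 to 234 CPM in 67NR and 3.36 to 325 CPM in Control scaffolds. Their origin and their part in the members' difference were not tested. Macrophage markers summed to 13119 to 17754 CPM in 4T07 and 14642 to 16052 CPM in 4T1 scaffolds, and fibroblast and preadipocyte markers to 5585 to 7246 CPM and 7336 to 11417 CPM. Fibroblast markers were thus lower in every 4T07 scaffold than in any 4T1 scaffold, as every member except Lpl was, and their part in the members' difference was not tested. 4T07 scaffold 22 also held the highest B cell (546 CPM) and keratinocyte (189 CPM) sums of the scaffolds, whose part was not tested either. Mammary epithelial markers summed highest in Control scaffold 3 (59.3 CPM) and 67NR scaffold 12 (40.8 CPM). The other Control and 67NR scaffolds held 6.47 to 14.9 CPM, the 4T07 scaffolds 21.9 to 36.0 CPM and the 4T1 scaffolds 16.3 to 32.3 CPM. The part of these markers in the members' levels was not tested.

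The members other than Lpl varied together from scaffold to scaffold. Over the 12 scaffolds, Pearson's r of log2(CPM + 1) was 0.947 for Adipoq with Plin1, 0.919 for Adipoq with Pck1 and 0.961 for Cidec with Cyp2e1, the highest pair. The 21 pairs without Lpl and Lep had r between 0.585 and 0.961, with a median of 0.856. With the group means removed, their median was 0.626 and their range -0.062 to 0.913. Fabp4 followed the other members mainly between groups, since with the group means removed its r with Adipoq, Plin1, Cidec, Retn, Pck1 and Cyp2e1 was only -0.062 to 0.212. Pairs with Lpl reached at most 0.404 (median 0.314 over 8 pairs). These values describe 12 libraries that share group and depth, and all counts come from the same tissue pieces.

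The members were also read as a ratio to Adipoq in the same library. The ratio of Plin1 to Adipoq, both in CPM, was 0.281 to 0.323 in 4T1 and 0.274 to 0.368 in 4T07 scaffolds, 0.211 to 0.334 in Control and 0.354 to 0.464 in 67NR scaffolds, which lay above every 4T1 and Control scaffold. The ratio of Pck1 to Adipoq was 0.157 to 0.334 in 4T1, 0.164 to 0.210 in 4T07, 0.127 to 0.272 in 67NR and 0.120 to 0.180 in Control scaffolds. Within the 4T1 group the lowest Pck1 ratio, that of 4T1 scaffold 34, lay inside the range of the other groups. The ratio of Cyp2e1 to Adipoq was 0.135 to 0.193 in 4T1 and 0.113 to 0.154 in 4T07 scaffolds, which overlap. It was 0.0848 to 0.134 in 67NR and 0.0569 to 0.173 in Control scaffolds. In 67NR and in Control alike, 2 scaffolds lay below all 4T1 and 4T07 scaffolds. The ratio of Fabp4 to Adipoq was 4.72 to 9.32 in 4T1 and 11.0 to 11.7 in 4T07 scaffolds, with no overlap, 7.08 to 12.2 in Control and 7.10 to 23.6 in 67NR scaffolds. For Lpl, too, the ratio was higher in 4T07, at 136 to 186 in 4T07 against 27.5 to 68.2 in 4T1 scaffolds, with no overlap. Lpl itself was 1.20-fold and Fabp4 2.41-fold higher in 4T1 than in 4T07 scaffolds, against 4.20-fold for Adipoq. Both ratios thus follow the larger difference in Adipoq and are no separate result on Lpl or Fabp4.

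**Figure D2:**
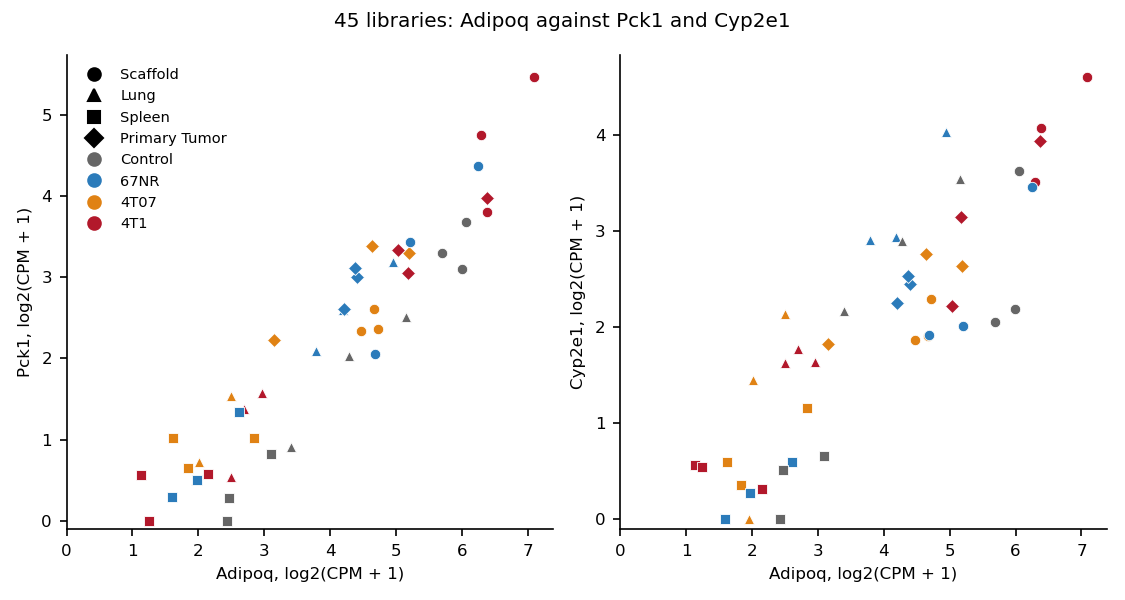
Pck1 (left) and Cyp2e1 (right) against Adipoq in the 45 libraries, each as log2(CPM + 1); marker shape gives the tissue and colour the line. Scaffolds and tumors lie at the upper right and spleens at the lower left, and Pck1 with Adipoq has r = 0.943 over the 45 libraries and Cyp2e1 r = 0.871.

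Genes outside the list were ranked by r with a member, among genes with a mean of at least 5 CPM. Over all 45 libraries (12040 genes), those most like Adipoq were Car3 (0.953), Cfd (0.947), Mfap5 (0.905), Myof (0.899), Serpinf1 (0.899), Vwa5a (0.895), Sulf2 (0.893) and Ccdc122 (0.890). Car3, a carbonic anhydrase, and Cfd, the complement factor adipsin, are classic adipocyte products. Over the 12 scaffolds (10904 genes) the order changed to Dgat2 (0.953), Thnsl2 (0.941), Cdo1 (0.936), Gpr183 (0.900), Nupr1l (0.898), Cnih4 (0.895), Elp2 (0.876) and Ak3 (0.873), led by Dgat2, which adds the last fatty acid to triglyceride. For Pck1 the genes were Plin4 (0.909), Dgat2 (0.897), Cers2 (0.885), Gpd1 (0.880) and Cdo1 (0.879). For Cyp2e1 they were Plin4 (0.933), Cdo1 (0.919), Dgat2 (0.919), Ephx2 (0.897) and Pcx (0.892). Plin4 coats lipid droplets, Gpd1 makes glycerol 3-phosphate, and Cdo1 oxidises cysteine. Ranked by Spearman's rho instead, 3 of the 8 for Adipoq over all libraries, 4 of the 8 over scaffolds, 2 of the 5 for Pck1 and 3 of the 5 for Cyp2e1 were named again.

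Related genes in scaffolds were read from lists of adipocyte biology. In 67NR against Control scaffolds none of the 15 genes of fatty acid and triglyceride synthesis, 14 of the droplet and lipolysis, 9 of fatty acid uptake, 14 adipocyte secreted and surface genes, 9 adipogenic transcription factors or 5 brown and beige fat genes was called. The 4T1 and 4T07 scaffolds chose the list of members, so calls and medians between them are a description and test nothing. Between them 0.587% of all genes were called higher in 4T1. The called genes of the lists were all higher in 4T1: Dgat2 and Gpd1 of the synthesis list, Plin4 of the droplet list, and Sncg and Trarg1 of the secreted and surface list. No transcription factor was among the calls. Scd1, the desaturase and the most abundant gene of the synthesis list, was 313 ± 132 CPM in Control (mean ± SD, n = 3), 185 ± 109 in 67NR, 162 ± 23.2 in 4T07 and 272 ± 24.9 in 4T1 scaffolds, and was called lower in 4T07 than in Control. Car3 stood at 215 ± 44.8 CPM in 4T07 and 530.0 ± 98.8 CPM in 4T1 scaffolds, and Cfd at 185 ± 60.6 and 434 ± 184 CPM, without a call in either case. Plin2, a droplet coat of most cells, was 1182 ± 332 CPM in 4T07 and 973 ± 221 CPM in 4T1 scaffolds, a difference smaller than the SD of either group. The lists' medians for 4T1 against 4T07 were 0.99 for secreted and surface genes, 0.56 for synthesis, 0.21 for the droplet, 0.24 for uptake and 0.29 for transcription factors, beside 1.95 for the members and -0.02 for all genes.

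In lungs Adipoq, Plin1 and Fabp4 were called lower in both invasive lines, 4T07 and 4T1, against Control and against 67NR mice. Adipoq stood at 9.59, 34.6 and 18.5 CPM in Control lungs, 12.8, 17.2 and 29.9 CPM in 67NR, 4.66, 2.89 and 3.04 CPM in 4T07 and 5.47, 6.78 and 4.65 CPM in 4T1 lungs. Neither invasive group overlapped with Control or 67NR, which themselves overlapped. Adipoq fell in 4T07 lungs (log2 difference -2.49 ± 0.49, adjusted p = 0.00112) and in 4T1 lungs (-1.86 ± 0.43, adjusted p = 0.0220) against Control, with edgeR's test as for scaffolds. Of the 8 members with enough counts to test, 8 fell in 4T07 against Control lungs, where 13.7% of all genes were called lower, and 5 fell in 4T1 against Control lungs, where 0.903% were. The median log2 difference of the members was -1.99 in 4T07 and -1.39 in 4T1 lungs, beside -0.01 and -0.00 over all genes. Lep was not tested: it had no count in Control, 4T07 or 4T1 lungs and 1, 2 and 2 counts in 67NR lungs.

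**Figure D3:**
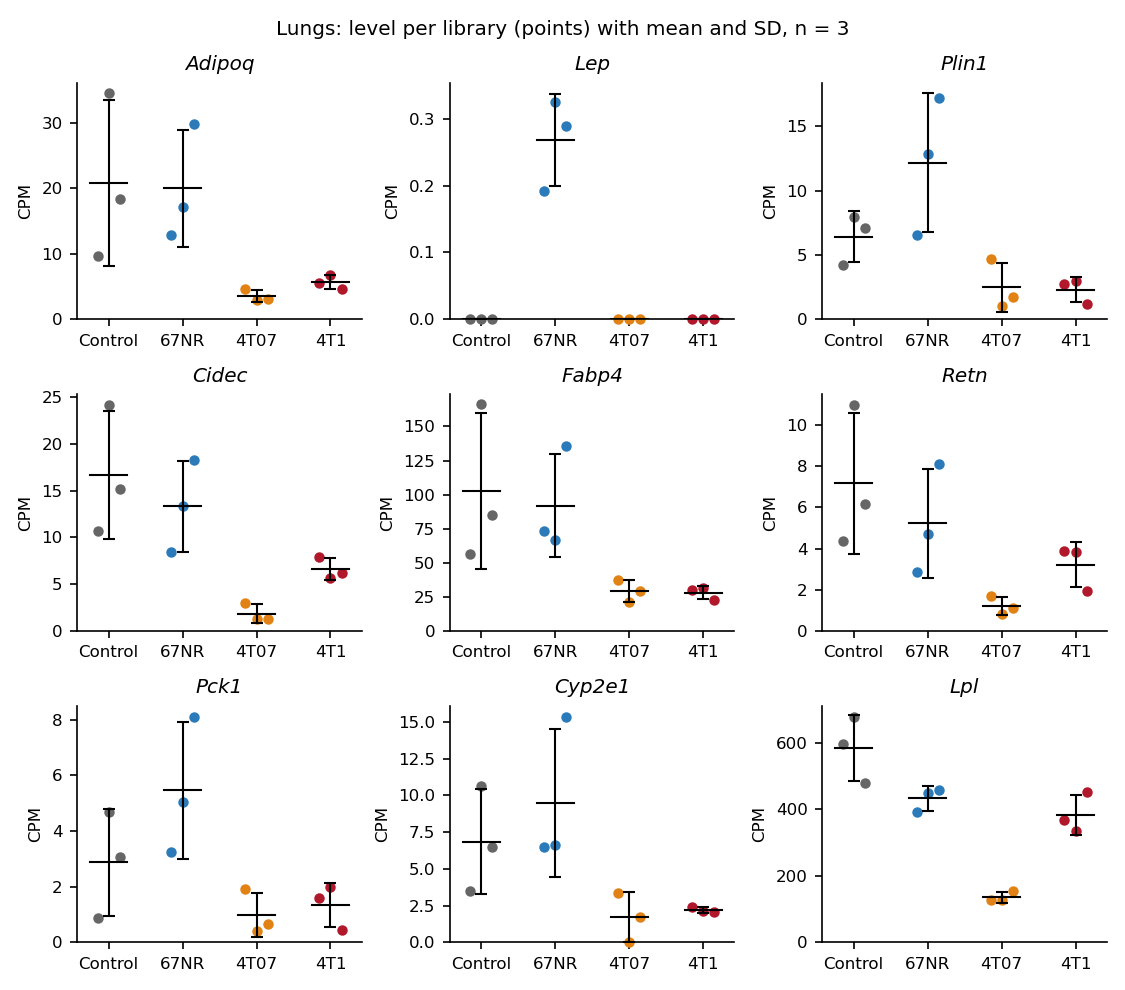
Level of each of the 9 genes in the 12 lungs, in CPM on a linear axis; points are libraries, the horizontal line is the mean and the bars are the SD of 3, cut off at 0. The means of both invasive groups are below those of Control and 67NR for all genes but Lep, while the 4T1 lungs lie near the 67NR lungs for Lpl.

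Lpl, which in lung is not a marker of adipocytes, separated the invasive lines. It stood at 595, 677 and 480.2 CPM in Control lungs, 391, 450.2 and 457 in 67NR, 126, 127 and 155 in 4T07 and 367, 334 and 451 in 4T1 lungs. The 4T07 lungs lay far below all others, and 4T1 overlapped with 67NR. By edgeR Lpl fell in 4T07 (-2.04 ± 0.17, adjusted p = 5.46e-10), while in 67NR (-0.54 ± 0.16, adjusted p = 0.0377) and 4T1 lungs (-0.59 ± 0.16, adjusted p = 0.0228) the adjusted p passed and the fold stayed under 2. Cidec stood at 10.6, 24.2 and 15.2 CPM in Control, 8.43, 13.3 and 18.2 in 67NR, 2.96, 1.24 and 1.30 in 4T07 and 7.89, 5.65 and 6.15 in 4T1 lungs. Its 3 levels did not overlap between 67NR, 4T1 and 4T07. It fell against Control in 4T07 (-3.10 ± 0.39, adjusted p = 1.76e-06) and in 4T1 lungs (-1.33 ± 0.31, adjusted p = 0.0101).

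Pck1 and Cyp2e1, higher in the 4T1 than in the 4T07 scaffolds, were not called between the lungs of these lines. Pck1 stood at 1.91, 0.413 and 0.651 CPM in 4T07 and 1.61, 1.98 and 0.450 CPM in 4T1 lungs, against 0.872, 4.69 and 3.08 CPM in Control and 3.26, 5.04 and 8.10 CPM in 67NR lungs. Cyp2e1 stood at 3.39, 0 and 1.74 CPM in 4T07, 2.41, 2.12 and 2.10 CPM in 4T1, 3.49, 10.6 and 6.47 CPM in Control and 6.51, 6.66 and 15.3 CPM in 67NR lungs. Both genes had the highest mean in 67NR lungs, and 4T1 lay within the 4T07 range for Cyp2e1. The edgeR log2 differences between 4T1 and 4T07 lungs were 0.39 ± 0.73, adjusted p = 0.722 for Pck1 and 0.33 ± 0.78, adjusted p = 0.790 for Cyp2e1. Against Control, Pck1 (-1.45 ± 0.66, adjusted p = 0.0867) and Cyp2e1 (-1.93 ± 0.68, adjusted p = 0.0363) fell in 4T07 lungs, and in 4T1 lungs they differed by -1.06 ± 0.58, adjusted p = 0.317 and -1.60 ± 0.61, adjusted p = 0.146.

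The remaining members were Plin1, Fabp4 and Retn. Plin1 was 4.18, 7.93 and 7.12 CPM in Control, 6.51, 12.8 and 17.2 in 67NR, 4.66, 1.03 and 1.74 in 4T07 and 2.74, 2.97 and 1.20 in 4T1 lungs. Fabp4 was 56.3, 166 and 85.3 CPM in Control, 73.4, 66.8 and 136 in 67NR, 37.5, 20.9 and 29.3 in 4T07 and 29.8, 31.2 and 22.5 in 4T1 lungs, and the invasive groups lay below the others without overlap. Retn was 4.36, 11.0 and 6.15 CPM in Control, 2.87, 4.71 and 8.10 in 67NR, 1.69, 0.826 and 1.08 in 4T07 and 3.86, 3.81 and 1.95 in 4T1 lungs. All 3 fell in both invasive lines against Control by edgeR, with log2 differences in 4T1 lungs of -1.45 ± 0.46, adjusted p = 0.0689 for Plin1, -1.86 ± 0.43, adjusted p = 0.0322 for Fabp4 and -1.13 ± 0.37, adjusted p = 0.0693 for Retn. Against 67NR lungs, 8 members fell in 4T07 (15.2% of genes were called lower) and 5 in 4T1 (1.65%), namely Adipoq (-1.71), Plin1 (-2.29), Fabp4 (-1.60), Pck1 (-1.90) and Cyp2e1 (-1.99). Between the invasive lines 3 members were higher in 4T1 lungs, Cidec (1.78 ± 0.42, adjusted p = 0.00216), Retn (1.35 ± 0.51, adjusted p = 0.0401) and Lpl (1.45 ± 0.16, adjusted p = 1.45e-07), where 11.6% of genes were called higher. In 67NR against Control lungs 0 members were called by edgeR and 0 by DESeq2, 3.91% of genes were called in either direction and 4952 genes had an unadjusted p under 0.05.

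How many members fell rested on single libraries, except in 4T07 against 67NR lungs, where 8 fell whichever library was left out. Against Control, the count in 4T07 lungs was 5 without Control lung 5 or 4T07 lung 27, losing Plin1, Pck1 and Cyp2e1 each time, and the count in 4T1 lungs was 2 without Control lung 5 or 4T1 lung 38 and 3 without 4T1 lung 37 or 39. Adipoq kept its call against Control in every one of these fits. Control lung 5, which held the hepatocyte markers, was the highest Control lung for all 8 members tested. Against 67NR lungs the 4T1 count was 1, Plin1, without 67NR lung 15, the highest 67NR lung for all 8 members, 2 without 4T1 lung 37 or 39 and 3 without 4T1 lung 38. 67NR lung 15 also held the highest skeletal muscle sum of the lungs, 142 CPM against at most 47.8 CPM in any other lung. Its brown and beige fat sum was highest too, 113 CPM against at most 69.2 CPM, and the part of either was not tested. With the 4T07 lungs left out of the fit, 6 members fell in 4T1 against Control, Cyp2e1 being added (log2 difference -1.61, adjusted p = 0.0377 by edgeR), and 5 in 4T1 against 67NR. In 4T07 lungs the members' fall came with lower lung epithelial sums, and with endothelial markers at 1275 to 2038 CPM against 3761 to 4792 CPM, fibroblast markers at 794 to 1205 CPM against 2259.5 to 2679 CPM and pan immune markers at 1327 to 1569 CPM against 484 to 764 CPM in Control and 67NR. The part of these cell types in the members' fall was not tested. In 4T1 lungs the endothelial and fibroblast sums overlapped with Control (4102 to 4299 CPM against 3761 to 4209.5 CPM and 2403 to 2574 CPM against 2425 to 2679 CPM). The lung epithelial sums overlapped as well, at 29078 to 36063 CPM against 35532 to 37744 CPM. Only the pan immune sums lay apart, at 949 to 1526 CPM against 569 to 764 CPM.

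Genes of the related lists were called lower in 4T07 lungs at shares that differed from list to list. Against Control, where 13.7% of all genes were called lower and 15.3% higher, 8 of 14 secreted and surface genes fell and 1 rose (Slc2a4, the insulin-regulated glucose transporter), 6 of 9 uptake genes fell and 1 rose, 5 of 15 synthesis genes fell and 2 of 14 droplet genes fell. Cd36, a fatty acid receptor of capillaries, went from 871 ± 41.3 CPM in Control (mean ± SD, n = 3) to 313 ± 68.6 CPM (edgeR -1.41 ± 0.16, adjusted p = 1.18e-07). Gpihbp1, which holds lipoprotein lipase on the capillary wall, went from 198 ± 24.1 to 52.7 ± 14.5 CPM (-1.85 ± 0.17, adjusted p = 5.52e-09). Cfd went from 136 ± 59.6 to 27.3 ± 17.8 CPM (-2.25 ± 0.60, adjusted p = 0.0151), and Car3 from 114 ± 57.2 to 30.1 ± 15.1 CPM (-1.85 ± 0.54, adjusted p = 0.0221). In 4T1 against Control lungs, where 0.903% of all genes were called lower and 3.47% higher, the calls in the same lists were few: Acvr1c lower among secreted and surface genes, Scd1 and Thrsp lower among synthesis genes, Plin5 higher among droplet genes, none among uptake genes, and Pparg lower and Cebpd higher among transcription factors. Pparg, the transcription factor that drives adipocyte differentiation, also fell in 4T07 lungs (-1.37 ± 0.36, adjusted p = 0.00309 against -1.02 ± 0.33, adjusted p = 0.0580 in 4T1). Car3 was 36.8 ± 10.4 CPM and Cfd 50.6 ± 21.2 CPM in 4T1 lungs, with edgeR log2 differences from Control of -1.60 ± 0.52, adjusted p = 0.114 and -1.41 ± 0.57, adjusted p = 0.196. Brown and beige fat genes were called lower for 3 of 6 and higher for 1 in 4T07 and for none in 4T1 lungs.

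In spleens the members were mostly near the limit of detection, and few were called. Adipoq stood at 7.57, 4.38 and 4.53 CPM in Control spleens, 2.93, 5.11 and 2.02 in 67NR, 6.18, 2.07 and 2.58 in 4T07 and 1.20, 3.43 and 1.37 in 4T1 spleens. The 4T1 spleens lay below all Control spleens and overlapped with 67NR and 4T07. Adipoq was the only member called lower in 4T1 than in Control (-1.22 ± 0.48, adjusted p = 0.0620 by edgeR), where 9.96% of genes were called lower, and the call was lost without Control spleen 7, 4T1 spleen 40 or 4T1 spleen 42. Cidec was added without 4T1 spleen 41 and Fabp4 without Control spleen 9. Fabp4 was 51.3, 45.9 and 22.6 CPM in Control, 20.9, 20.2 and 13.5 in 67NR, 67.5, 38.3 and 11.7 in 4T07 and 12.9, 16.7 and 16.0 in 4T1 spleens, so the 67NR and 4T1 spleens lay below all Control spleens and the 4T07 spleens spanned both. Its edgeR difference from Control was -1.24 ± 0.53, adjusted p = 0.266 in 67NR and -1.14 ± 0.53, adjusted p = 0.147 in 4T1, and DESeq2 called it in both.

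Lpl, the member with the most counts in spleen, stood at 267, 202 and 178 CPM in Control, 169, 153 and 201 in 67NR, 149, 101 and 75.9 in 4T07 and 94.2, 119 and 99.2 in 4T1 spleens. Both invasive groups lay below Control and below 67NR. The edgeR differences from Control were -0.83 ± 0.21, adjusted p = 0.00570 in 4T07 and -0.80 ± 0.21, adjusted p = 0.00680 in 4T1, past the adjusted p and under the fold of 2. Retn was 1.44, 0.980 and 2.06 CPM in 4T1 and 0.628, 0.766 and 0.224 CPM in 67NR spleens and was called higher in 4T1 (1.79 ± 0.68, adjusted p = 0.0537), where 10% of genes were called higher, a call lost without 67NR spleen 18, 4T1 spleen 40 or 42 and by DESeq2. It rests on 3, 3 and 1 counts in the 67NR spleens and 6, 4 and 9 in the 4T1 spleens. Pck1 reached at most 1.53 CPM and Cyp2e1 at most 1.24 CPM in any spleen, so that the differences plotted and counted in the medians for them rest on 0 to 6 counts a library. For 67NR against Control 0 members were called (2.13% of genes in either direction, 3653 genes with an unadjusted p under 0.05, 1 member by DESeq2), for 4T07 against Control 0 (18.5%, 7719 genes, 0 by DESeq2), for 4T07 against 67NR 0 (14.5%, 7036 genes, 1 by DESeq2) and for 4T1 against 4T07 0 (2.38%, 3467 genes, 1 by DESeq2). Leaving out single spleens added 1 member to 3 of these 4 comparisons: Pck1 without Control spleen 7 and Lpl without 4T07 spleen 28 for 4T07 against Control, Plin1 without 67NR spleen 16 and Fabp4 without 4T07 spleen 30 for 4T07 against 67NR, and Fabp4 without 4T07 spleen 30 for 4T1 against 4T07. The members' median was 0.03 for 4T07 and -0.32 for 4T1 against Control, beside -0.09 and -0.10 over all genes.

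Among the related lists in spleens, the transcription factors Cebpb and Cebpd, which act early in adipocyte differentiation and also in myeloid cells, rose against Control in 4T07, where 8.17% of all genes were called higher and 10.3% lower, and in 4T1. Cebpd went from 19.4 ± 2.86 CPM in Control (mean ± SD, n = 3) to 75.1 ± 20.6 in 4T07 and 143 ± 55.1 in 4T1 spleens (edgeR 2.11 ± 0.28, adjusted p = 4.84e-05 and 3.14 ± 0.29, adjusted p = 1.07e-06). Acsl1, which activates fatty acids, rose from 49.3 ± 3.56 to 106 ± 13.7 and 103 ± 7.64 CPM (1.27 ± 0.18, adjusted p = 3.64e-05 and 1.32 ± 0.18, adjusted p = 1.88e-05). Slc2a4 rose from 15.5 ± 6.09 to 39.3 ± 2.12 and 44.6 ± 3.83 CPM.  In 4T1 against Control spleens 5 of 15 synthesis genes rose and 3 fell (over all genes 9.65% were called higher and 9.96% lower), 2 of 13 droplet genes rose and none fell, and 3 of 14 secreted and surface genes rose and 1 fell. B cell markers summed to 3769.9 to 5167 CPM in Control, 2075 to 2888 CPM in 4T07 and 1609 to 2299 CPM in 4T1 spleens, and the part of cell makeup in the gene differences was not tested.

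**Figure D4:**
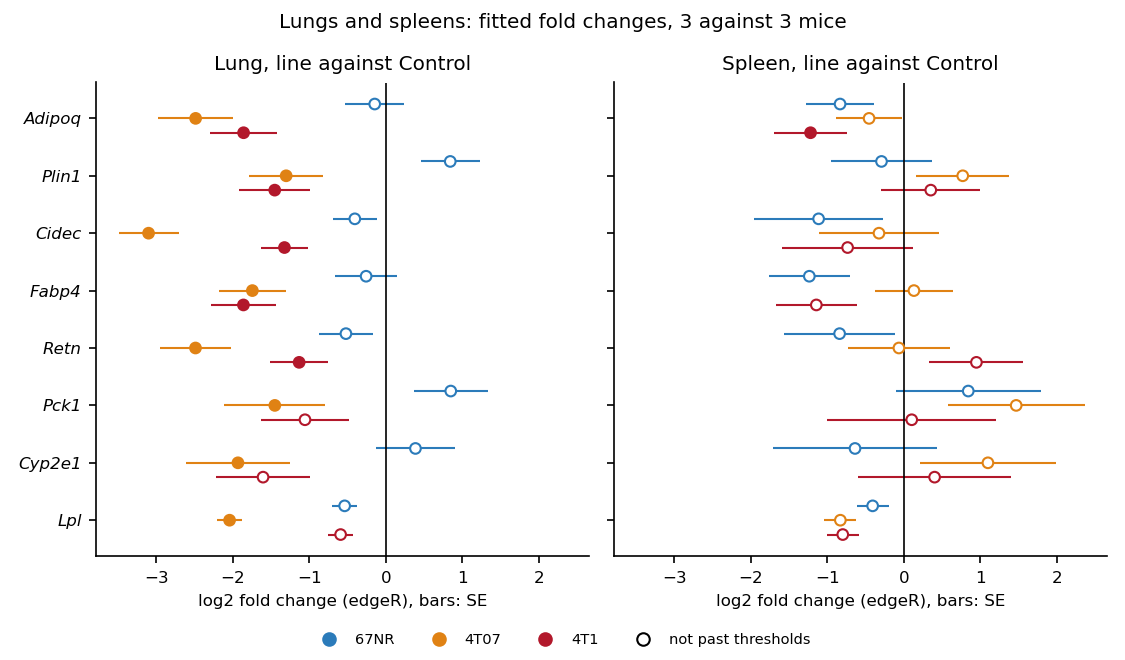
Log2 difference of each line from Control for the 8 members tested, in lungs (left) and spleens (right), by edgeR; bars are the SE, and filled points passed the adjusted p and the fold. All 8 points of 4T07 are filled and below 0 in lungs, and none of them is filled in spleens.

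The difference between lung and spleen was tested directly, as the change from Control in lung minus that in spleen in a fit of all 45 libraries, called on the adjusted p alone. For 4T07, 5 of the 9 members were called, each with a lower change in lung than in spleen, where 9.85% of genes were called in that direction. By edgeR they were Adipoq (-2.14 ± 0.85, adjusted p = 0.0866), Cidec (-2.90 ± 1.19, adjusted p = 0.0990), Fabp4 (-2.00 ± 0.60, adjusted p = 0.0193), Retn (-2.53 ± 1.01, adjusted p = 0.0844) and Lpl (-1.33 ± 0.32, adjusted p = 0.00213). Plin1, Pck1 and Cyp2e1 were not called, though their 4T07 means were below Control in lungs and above it in spleens. The median over members was -2.18, beside 0.10 over all genes. For 4T1 no member was called, with Plin1 at -1.79 ± 1.02, adjusted p = 0.303 and Retn at -2.08 ± 0.84, adjusted p = 0.111, and 15.1% of genes were called in either direction, 6372 genes had an unadjusted p under 0.05 and DESeq2 called 1 member. For 67NR no member was called between lung and spleen (0.0362% of genes, 2253 genes with an unadjusted p under 0.05, 0 members by DESeq2), between scaffold and lung (0.0108%, 1740 genes, 0 by DESeq2) or between scaffold and spleen (0%, 2016 genes, 0 by DESeq2). Retn held 1 to 9 counts in a spleen library and Cidec 0 to 7, so their differences rest on few counts. Lep has no count in control lungs and spleens, and its estimate is not read on its own, though it enters the median over the 9 members. The 4T07 values rest on the lungs that stood apart and cannot be had without them.

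In primary tumors, which grew in the mammary fat pad, all 9 members were detected. Lpl was 153, 113 and 113 CPM in 67NR tumors, 472, 448 and 241 CPM in 4T07 tumors and 231, 399 and 214 CPM in 4T1 tumors. The 67NR tumors lay below all others. Lpl was higher in 4T07 than in 67NR tumors (1.37 ± 0.27, adjusted p = 9.32e-04 by edgeR, called at an adjusted p under 0.05 in tumors), the 1 member called where 17% of genes were called higher, and in 4T1 it differed from 67NR by 0.95 ± 0.26, adjusted p = 0.0128 with a fold under 2. Macrophage markers summed to 2752 to 3049.6 CPM in 67NR, 5279.8 to 5727 CPM in 4T07 and 4051 to 4409.5 CPM in 4T1 tumors, and fibroblast markers to 988 to 1073 CPM, 3695 to 4892 CPM and 3855 to 5234 CPM, and their part in the difference of Lpl was not tested. Adipoq was 17.5, 20.1 and 19.8 CPM in 67NR tumors, 35.5, 23.9 and 7.90 CPM in 4T07 tumors and 35.1, 81.8 and 31.7 CPM in 4T1 tumors. The 67NR tumors were tight, and the others ranged widely: 4T1 tumor 44 was the highest tumor for every member except Lpl, and 4T07 tumor 33 the lowest 4T07 tumor for Adipoq, Plin1, Fabp4, Retn, Pck1, Cyp2e1 and Lpl. Pck1 was 5.11, 6.99 and 7.62 CPM in 67NR tumors, 8.83, 9.43 and 3.67 CPM in 4T07 tumors and 7.31, 14.8 and 9.07 CPM in 4T1 tumors, and Cyp2e1 was 3.76, 4.48 and 4.80, 5.22, 5.81 and 2.54 and 7.86, 14.3 and 3.67 CPM.

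Between 4T1 and 67NR tumors 0 members were called, where 20.5% of genes were called in either direction, 8448 genes had an unadjusted p under 0.05 and DESeq2 called Adipoq and Cidec. Between 4T1 and 4T07 tumors 0 members were called as well, with 8.33% of genes called, 5841 genes with an unadjusted p under 0.05 and Adipoq and Plin1 called by DESeq2. The edgeR log2 differences were 1.16 ± 0.53, adjusted p = 0.139 for Adipoq and 1.27 ± 0.45, adjusted p = 0.0533 for Cidec between 4T1 and 67NR, and 1.17 ± 0.48, adjusted p = 0.142 for Plin1 between 4T1 and 4T07. For Pck1 the difference between 4T1 and 4T07 tumors was 0.52 ± 0.34, adjusted p = 0.340 and for Cyp2e1 0.94 ± 0.41, adjusted p = 0.136. Without 4T1 tumor 45, whose levels were the lowest of the 4T1 tumors for 7 members, 4 members were called between 4T1 and 67NR (Plin1, Cidec, Cyp2e1 and Lpl) and 2 between 4T1 and 4T07 (Plin1 and Cyp2e1). Lpl alone was called between 4T1 and 67NR without 4T1 tumor 43 or 67NR tumor 19. The members' median was -0.01 for 4T07 and 0.92 for 4T1 against 67NR, beside 0.16 and 0.09 over all genes.

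Of the related genes in tumors, Cebpb was 104 ± 17.8 CPM in 67NR tumors (mean ± SD, n = 3), 382 ± 67.4 CPM in 4T07 tumors and 267 ± 65.2 CPM in 4T1 tumors and rose in both lines against 67NR by edgeR (1.62 ± 0.21, adjusted p = 6.99e-06 and 1.16 ± 0.21, adjusted p = 2.84e-04). Dio2, which activates thyroid hormone, was 1.84 ± 0.415 CPM in 67NR tumors, 268 ± 135 CPM in 4T07 tumors and 33.9 ± 2.67 CPM in 4T1 tumors (6.91 ± 0.41, adjusted p = 4.25e-08 and 3.98 ± 0.42, adjusted p = 9.70e-06). Scd1 was 126 ± 34.8, 422 ± 47.8 and 259.7 ± 106 CPM and was called between 4T07 and 67NR alone. The adipocyte products Car3 (139 ± 74.5, 242 ± 101 and 279 ± 148 CPM) and Cfd (152 ± 51.5, 206 ± 98.0 and 367 ± 146 CPM) were not called in any of the 3 comparisons. Of 14 secreted and surface genes 4 rose and 1 fell in 4T07 against 67NR tumors, beside 17% of all genes called higher and 11.7% lower. In 4T1 against 67NR tumors 1 rose and 0 fell, beside 11.5% and 9.04% of all genes.

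In healthy mice the scaffold held more of most members than lung and spleen. Adipoq averaged 59.7 ± 7.79 CPM in scaffolds (mean ± SD, n = 3), 20.9 ± 12.7 in lungs and 5.50 ± 1.80 in spleens. Lep, without a count in control lungs and spleens, is left out of the counts. Against control spleens all 8 other members were called higher in control scaffolds (14.1% of genes were called higher) and in control lungs (16.3%). Against control lungs 6 of these 8 were higher in control scaffolds (12.6%), the exceptions being Cidec (0.33 ± 0.45, adjusted p = 0.632 by edgeR) and Cyp2e1 (0.07 ± 0.53, adjusted p = 0.970), whose scaffold and lung levels overlapped. Pck1 was 3.90-fold higher in control scaffolds than in control lungs (1.96 ± 0.55, adjusted p = 0.00486), Adipoq 3.43-fold (1.78 ± 0.44, adjusted p = 0.00183), Fabp4 6.29-fold (2.65 ± 0.42, adjusted p = 5.64e-06) and Lpl 7.63-fold (2.93 ± 0.24, adjusted p = 8.19e-15). Lep was at least 1.70-fold higher in control scaffolds than the floor of 3 counts in a lung library and at least 1.37-fold higher than that in a spleen library. With Lep at these bounds the median log2 difference of the members was 1.67 against lungs and 3.96 against spleens, compared with 1.78 and 4.03 as fitted, and 0.04 and -0.05 over all genes. Cyp2e1 in control spleens amounted to 3, 0 and 2 counts.

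In 67NR mice the tumor, although placed in fat, held less Adipoq, Fabp4 and Lpl than the scaffold. Adipoq averaged 19.1 ± 1.45 CPM in tumors and 45.2 ± 26.3 CPM in scaffolds (-1.23 ± 0.46, adjusted p = 0.0320 by edgeR), Fabp4 237 ± 39.0 and 515 ± 78.5 CPM (-1.11 ± 0.40, adjusted p = 0.0282) and Lpl 126 ± 23.0 and 3677 ± 219 CPM (-4.86 ± 0.26, adjusted p = 8.73e-21). These 3 were the members called, where 18.2% of genes were called lower. Macrophage markers summed to 2752 to 3049.6 CPM in 67NR tumors and 11205 to 12507 CPM in 67NR scaffolds and fibroblast markers to 988 to 1073 CPM and 7948 to 9429 CPM, and their part in these differences was not tested. In 4T07 and 4T1 mice tumor and scaffold were not tested against each other, and in 4T07 mice Fabp4 averaged 278 ± 90.3 CPM in tumors and 268 ± 31.5 CPM in scaffolds. Plin1 (-0.20 ± 0.46, adjusted p = 0.782), Pck1 (-0.72 ± 0.52, adjusted p = 0.294) and Cyp2e1 (-0.28 ± 0.60, adjusted p = 0.767) were not called, and their 67NR scaffold values spanned the tumor values. The count was 5 without 67NR scaffold 10, with Cidec and Pck1 added, and 67NR scaffold 12 decided the call of Adipoq, which was lost without it while Lep was added. The median log2 difference of all genes in this comparison was -0.23, and that of the members -0.72.

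**Figure D5:**
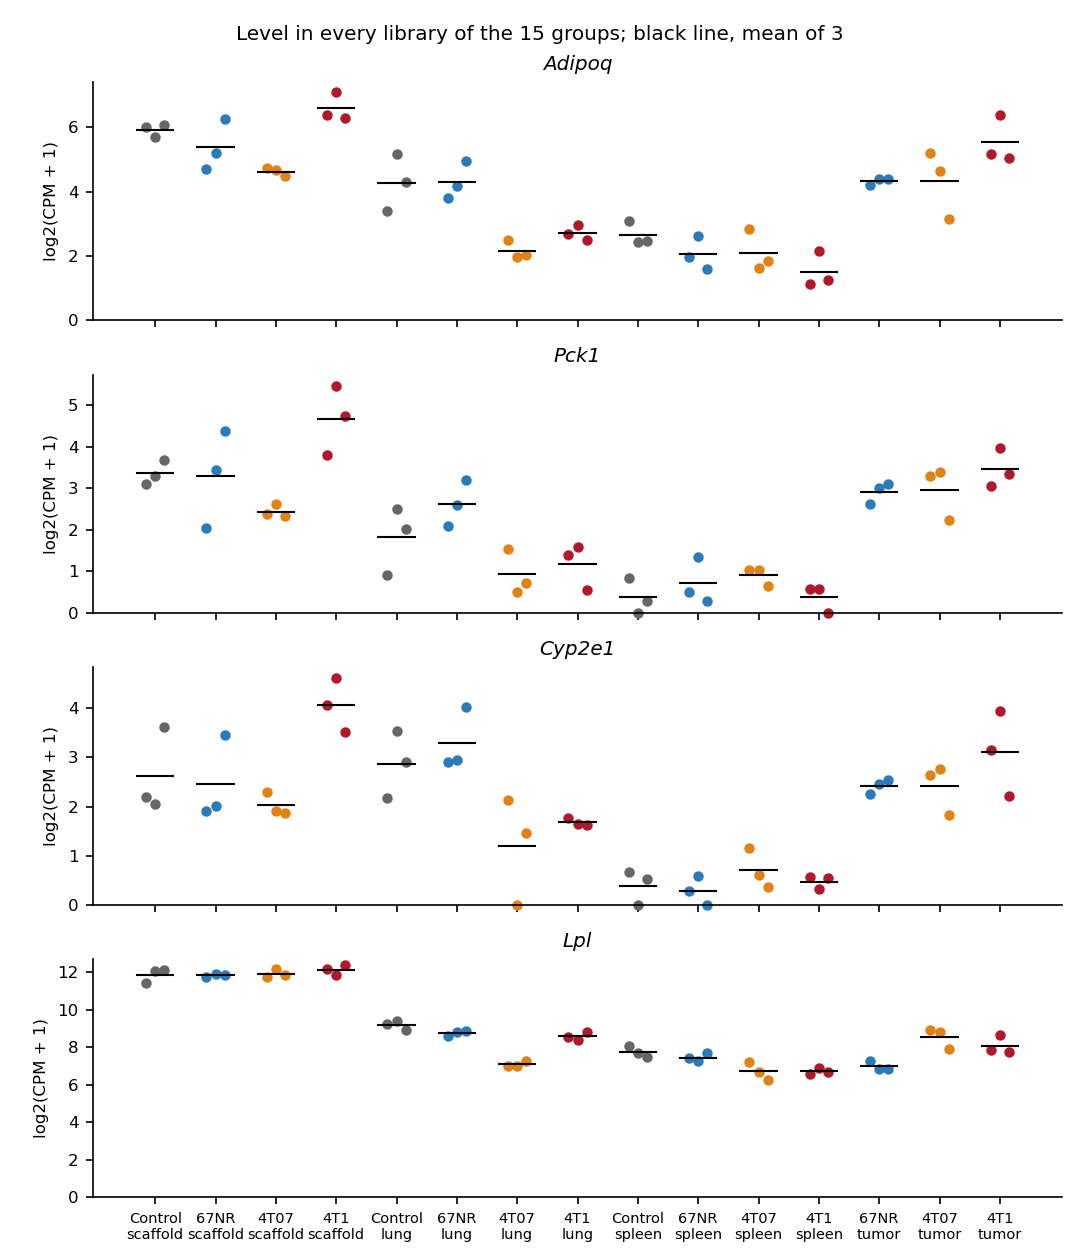
Adipoq, Pck1, Cyp2e1 and Lpl in the 15 groups, as log2(CPM + 1); points are libraries, grouped by tissue and coloured by line. Control scaffolds lie above control lungs and control spleens for Adipoq, Pck1 and Lpl, whereas Cyp2e1 overlaps between control scaffolds and control lungs.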

How the data were processed

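RNA from 45 tissue samples of female Balb/c mice was extracted with RNeasy and, per the labels, made into QuantSeq 3′ FWD libraries with a UMI add-on and sequenced on a NovaSeq. The authors deposited one table of raw counts per gene symbol. The submitters' processing notes name Trim Galore 0.5.0, STAR 2.6.0 and featureCounts, without role or order; genome build, annotation and whether UMIs were collapsed are not given in the sources used here. Where they were not collapsed, amplification adds to the spread of low counts.

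The 120 lines that repeated a symbol were summed into it, which left 55367 symbols from 55487 lines. No pair of libraries within a group was identical (45 pairs). Levels are CPM of the library total, and 3′ counts carry no length scaling. Levels of different genes were set together only in ratios to Adipoq within a library, in marker sums and in naming the most abundant genes. Each tissue was fitted with all its groups in edgeR 4.0.16 (R 4.3.3; TMM, robust quasi-likelihood F test, Benjamini-Hochberg adjustment over all genes with more than 10 counts in all), with calls at an adjusted p under 0.10 (0.05 in tumors) and a fold over 2. Tissues were compared in one fit of the 45 libraries, and differences between line effects were called on the adjusted p alone. The SE is the log2 difference divided by the square root of F. The paper states that whole cages were allotted at random to lines and time points, so effects of line and cage cannot be told apart. The labels give neither cages nor days, so p-values measure the spread between these mice and not that between cages.

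The named genes were the 9 members, up to 4 of the most abundant genes of each related list, and the genes most like Adipoq, Pck1 and Cyp2e1; others are named as the called members of a list. The members and lists were chosen with earlier results of these data known. Alternatives were DESeq2 1.42.0, its size factors, other count filters, only the compared groups, and each library left out. Promoter sequences were from RefSeq (GRCm38.p6).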

Additional observations from a re-analysis of the deposited data

Results flagged for a closer look

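A difference between lung and spleen in the response to 4T07 inoculation, tested as an interaction in a fit of all 45 libraries (edgeR, adjusted p under 0.10), was found for 5 adipocyte genes. For Adipoq the change from Control in lung minus that in spleen was -2.14 ± 0.85, adjusted p = 0.0866, with -2.49 in lung and -0.46 in spleen when each tissue was fitted on its own. For Cidec it was -2.90 ± 1.19, adjusted p = 0.0990 (-3.10 in lung and -0.33 in spleen). For Fabp4 it was -2.00 ± 0.60, adjusted p = 0.0193 (-1.74 and 0.13), and for Retn -2.53 ± 1.01, adjusted p = 0.0844 (-2.49 and -0.07). For Lpl it was -1.33 ± 0.32, adjusted p = 0.00213 (-2.04 and -0.83), so that Lpl was lower than Control in both tissues and more so in lung. All 3 lungs of 4T07 mice lay below all 3 Control lungs for Adipoq, Cidec, Fabp4, Retn and Lpl. These are the lungs with low lung epithelial and high B cell marker sums, and the part of that in the difference was not tested.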

How the results depend on the processing

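Over planned and added settings, 830 values of members called in the reported fit or in an alternative were recomputed: 736 kept their side of the threshold, 46 lost it, 48 gained it and 0 changed sign; among members called in neither, 85 of 1169 values changed sign. The number of members called in 67NR against Control scaffolds was 0 under every setting, including each replicate left out (0 to 0). In lungs, leaving out 1 library at a time gave 0 to 1 members for 67NR against Control, 5 to 8 for 4T07 against Control, 2 to 5 for 4T1 against Control, 8 to 8 for 4T07 against 67NR, 1 to 6 for 4T1 against 67NR and 2 to 3 for 4T1 against 4T07. In spleens the ranges were 0 to 0 and 0 to 1 for 67NR and 4T07 against Control, 0 to 2 for 4T1 against Control and 0 to 1 for each of the 3 comparisons between lines. In tumors they were 1 to 1 for 4T07 against 67NR, 0 to 4 for 4T1 against 67NR and 0 to 2 for 4T1 against 4T07. Between tissues, Lep included, they were 6 to 7 for control scaffold against lung, 9 to 9 against spleen, 7 to 8 for control lung against spleen and 3 to 5 for 67NR tumor against scaffold.

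Requiring at least 10 counts in every sample left fewer members to test and gave 3 (4T07 against Control), 2 (4T1 against Control), 3 (4T07 against 67NR), 2 (4T1 against 67NR) and 1 (4T1 against 4T07) in lungs, 1 (4T07 against 67NR) and 0 (4T1 against 67NR) in spleens and 1 (4T1 against 67NR) in tumors. DESeq2 in place of edgeR gave 1 (67NR against Control), 2 (4T1 against Control), 1 (4T07 against 67NR), 0 (4T1 against 67NR) and 1 (4T1 against 4T07) in spleens, 2 (4T1 against 67NR) and 2 (4T1 against 4T07) in tumors, and for the lung minus spleen differences 8 for 4T07 and 1 for 4T1. DESeq2 size factors gave 1 in spleens (4T07 against 67NR). Fitting only the 2 compared groups gave 1 (67NR against Control) and 2 (4T1 against Control) in spleens and 2 in tumors (4T1 against 67NR). No filter on counts gave 2 (4T1 against 67NR) and 1 (4T1 against 4T07) in tumors. Where the construction of a setting does not show the cause, the cause was not tested.

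TMM factors moved the mean CPM of a group by a ratio of 0.881 to 1.14, and 1 of 129 group means by more than 1 SD. No paired analysis was possible because library numbers are unique and the labels do not tie tissues to a mouse. With 3 mice a group, an exact permutation test of 1 gene cannot go below p = 0.10, so calls rest on the spread shared across genes. Depth limits Lep everywhere, Pck1, Cyp2e1, Cidec, Retn and Plin1 in spleens (0 to 13 counts a library) and Pck1, Cyp2e1, Cidec and Retn in 4T07 lungs (0 to 16). Fits without the 4T07 lungs and folds relative to the median fold of all genes were chosen after seeing the data.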
